A study of Mus musculus with 14 samples.

Results

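The bone morphogenetic protein (BMP) receptors, ligands and ID genes of mouse mammary epithelium were examined in mice that overexpress Usp22. The set held 10 genes, taken by symbol from the deposited table of 16124 genes, and all 10 were in it. There were 4 receptors (Bmpr1b, Bmpr1a, Bmpr2 and Acvr1), 2 ligands (Bmp4 and Bmp7) and 4 ID genes (Id1, Id2, Id3 and Id4). Bmpr1b, around which the set was built, was chosen by its higher level in OE/OE than in WT libraries of this series, so its genotype difference is given as values only and was not tested.

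BMP ligands are secreted dimers that bring type I and type II serine/threonine kinase receptors together at the cell surface. The type II receptor activates the type I receptor, which phosphorylates SMAD1, SMAD5 and SMAD9, and these enter the nucleus with SMAD4. The ID genes are classical direct targets, and their products bind E proteins and keep them from DNA. In the mammary gland, BMP signaling takes part in the communication between epithelium and stroma during duct formation.

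The study asked how gene expression differs in mammary epithelial cells when Usp22, the ubiquitin protease of the SAGA complex, is overexpressed. The 14 libraries came from 7 pairs of female littermates aged 3.5 months, each pair holding 1 wild-type (WT) and 1 Usp22 OE/OE mouse. There was 1 library per mouse, and the pairs were numbered 1, 3, 4, 5, 6, 7 and 8. OE/OE mice were homozygous for Rosa26KI-Usp22, a FLAG- and MYC-tagged mouse Usp22 cDNA under the CAGGS promoter at ROSA26 whose STOP cassette had been removed by Zp3-Cre, so that expression was ubiquitous and not limited to the epithelium. Cells were prepared from glands 2, 3 and 4 of both sides by enzymatic digestion and short centrifugation, which enriches organoids without sorting. The WT littermates did not carry the Usp22 transgene, and the study does not state whether they carried Zp3-Cre. The embryonic stem cell clone behind the mice was not given in the sources used here.

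Depth was between 20125106 and 41835978 counted fragments per library. Usp22 had 3500 to 5380 normalized counts in WT and 74948 to 144288 in OE/OE mice, which put each library in the genotype of its label. Of 10 lists of 10 marker genes each, the pan-epithelial list had the highest score in every library, the score being the mean log2(normalized count + 1) of a list. It was 14.4 to 15.0 in WT and 14.5 to 15.2 in OE/OE mice. Fibroblast markers (11.7 to 12.7 in WT, 10.9 to 12.4 in OE/OE) and endothelial markers (11.8 to 12.5 and 10.5 to 12.9) were well detected in every library too, so the cells were enriched rather than pure. The OE/OE library of pair 4 stood apart, with the lowest endothelial, fibroblast and adipocyte scores of the 14 libraries and a proliferation score of 10.1 against 5.24 in its WT littermate. The differences below are therefore also given without that pair wherever it turned their direction.

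Levels of different genes were compared as normalized counts per kilobase of exon, in WT mice. Id3 had the highest median at 2310, followed by Bmpr1a at 847 and Acvr1 at 597. Id1 (461), Bmpr2 (421), Id2 (354) and Id4 (331) came next, then Bmp7 (177) and Bmp4 (163). Bmpr1b was lowest at 44.5. Neighbours in this order did not overlap over the 7 WT mice at 4 places, between Id3 and Bmpr1a, Bmpr1a and Acvr1, Id4 and Bmp7, and Bmp4 and Bmpr1b, while the neighbours from Acvr1 to Id4, and Bmp7 with Bmp4, had overlapping ranges. Bmpr1b was thus the scarcest of the type I receptor transcripts. It made up 0.676% to 3.23% (median 2.96%) of the summed level per kilobase of Bmpr1b, Bmpr1a and Acvr1 in WT mice, and 2.98% to 7.24% (median 3.40%) in OE/OE mice.

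Bmpr1b encodes a type I BMP receptor. The GENCODE M21 annotation of GRCm38 places it on the minus strand of chromosome 3, from 141837136 to 142169425, with 5 transcripts and 5962 exonic bases. Bmp4 lies on the minus strand of chromosome 14 from 46383520 to 46390669, and Id4 on the plus strand of chromosome 13 from 48261228 to 48266026. The 250 bases before a RefSeq start of these genes (GRCm38.p6) are shown as a receptor, a ligand and an ID gene whose window touches no GENCODE exon. RefSeq gives 3 starts for Bmpr1b, and the one farthest upstream is shown. RefSeq promoter sequences matched 8 of the 10 members, all but Id1 and Bmp7. Each window was searched for GGCGCC, a GC-rich motif bound by SMAD1 and SMAD5, and for CAGAC on either strand (GTCTG on the other), the SMAD-binding element, and matches are in capitals. The motifs do not overlap each other, and they occur in 9.59% and 42.2% of all 32851 RefSeq promoter windows of this length.
Bmpr1b, chr3:141982265-141982514, minus strand: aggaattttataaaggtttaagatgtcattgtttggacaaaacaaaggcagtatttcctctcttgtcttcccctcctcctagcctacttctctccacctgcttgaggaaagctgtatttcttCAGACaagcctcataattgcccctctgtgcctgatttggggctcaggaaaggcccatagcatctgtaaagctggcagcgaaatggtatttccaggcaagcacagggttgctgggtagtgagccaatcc
Bmp4, chr14:46390670-46390919, minus strand: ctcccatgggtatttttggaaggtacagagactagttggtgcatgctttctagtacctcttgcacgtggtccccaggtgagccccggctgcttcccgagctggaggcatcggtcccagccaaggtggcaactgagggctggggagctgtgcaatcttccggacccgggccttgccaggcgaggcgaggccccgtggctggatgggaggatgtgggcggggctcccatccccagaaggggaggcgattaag
Id4, chr13:48260866-48261115, plus strand: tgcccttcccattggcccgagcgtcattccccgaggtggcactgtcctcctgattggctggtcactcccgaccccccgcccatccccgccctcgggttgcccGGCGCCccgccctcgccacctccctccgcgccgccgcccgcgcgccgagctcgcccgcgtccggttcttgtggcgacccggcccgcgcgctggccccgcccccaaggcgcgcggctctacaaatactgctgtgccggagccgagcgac
The Bmpr1b window lies inside the GENCODE gene, before an internal start, and holds 1 CAGAC, 1 CpG and 46.8% G and C, against medians of 6 CpG and 52.4% over all windows. Fewer CpG were found in 7.87% of all windows. The windows before the other 2 Bmpr1b starts were near the medians, with 5 CpG each and 52.8% and 56.4% G and C, and 1 of them also held the CAGAC motif. The Id4 window is rich in CpG (35, with 75.6% G and C) and holds 1 GGCGCC. The Bmp4 window (11 CpG, 63.2% G and C) holds neither motif.

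Bmpr1b was higher in the OE/OE mouse in 6 of 7 pairs. The WT mice had between 62.0 and 316 normalized counts (median 266), and the OE/OE mice between 258 and 668 (median 381). In pairs 4, 6 and 8 it went from 196, 77.6 and 62.0 in WT to 668, 278 and 347 in OE/OE. These were the pairs with the lowest WT levels, and their log2 differences were 1.76, 1.83 and 2.46. In pairs 3, 5 and 7 it went from 266, 280 and 316 to 390, 381 and 421, with log2 differences between 0.41 and 0.55. In pair 1 the OE/OE mouse was the lower of the littermates, at 258 against 291, a log2 difference of -0.17. The groups overlapped, since 4 of 7 WT mice were above the lowest OE/OE mouse, while 5 of 7 OE/OE mice were above the highest WT mouse.

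The mean log2 difference of Bmpr1b was 1.04 ± 0.97 (SD over 7 pairs), a 2.06-fold higher level, and without pair 4 it was 0.92. Most of the range lay among the WT mice, whose highest level was 5.10 times the lowest, against 2.58 times among the OE/OE mice. Their SD on the log2 scale was 0.97 in WT and 0.45 in OE/OE. The lowest WT level, in pair 8, rested on 40 fragments in one of the shallowest libraries, and the next lowest, in pair 6, on 91, while the OE/OE values rested on 244 to 696 fragments. Of the sum of squares of Bmpr1b over the 14 libraries, 37.8% lay between pairs and 35.7% between genotypes. These raw shares cannot be set against each other, since pairs are more numerous than genotypes. The genotype share also follows from the difference by which Bmpr1b was chosen.

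**Figure D1:**
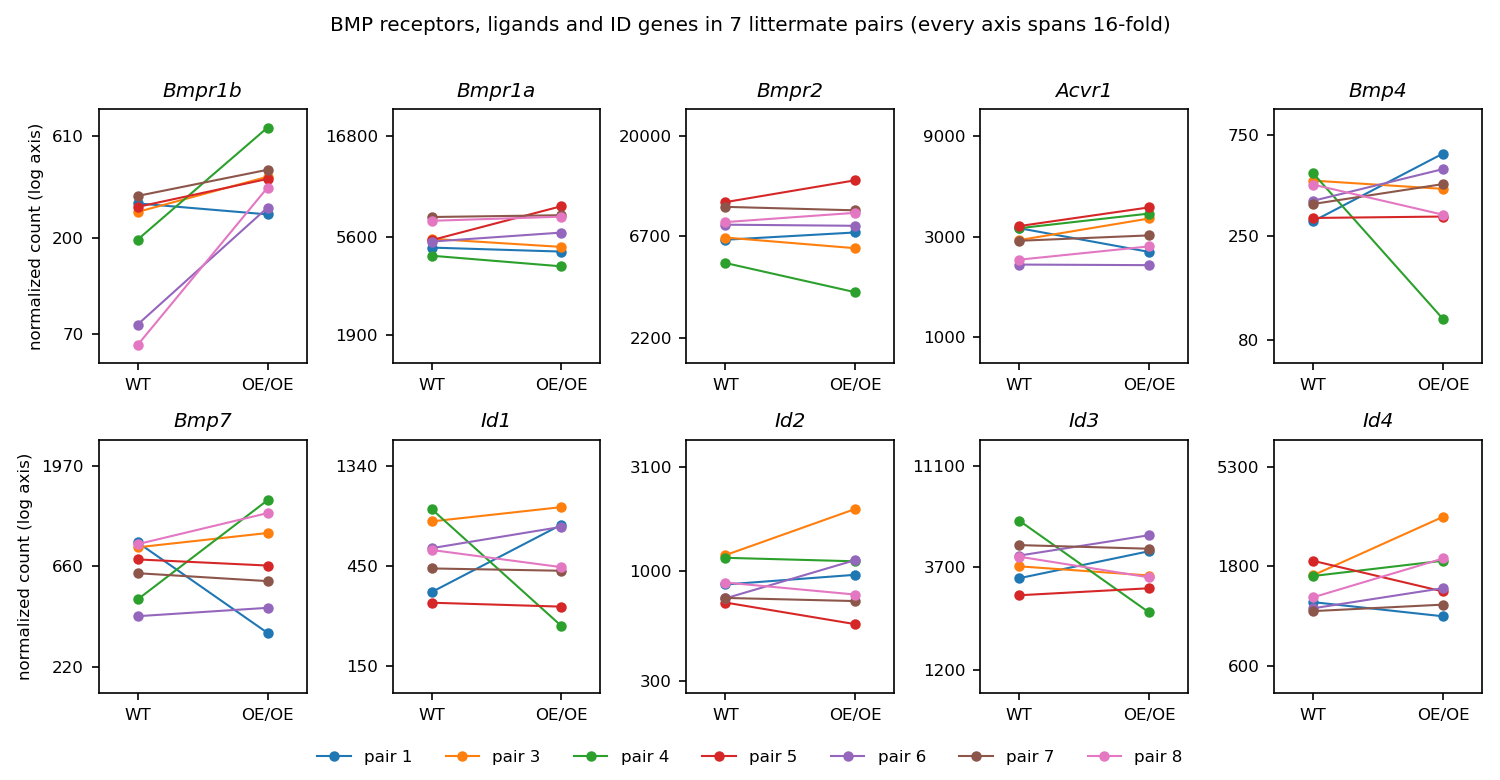
Normalized counts of the 10 genes (log axis, each spanning 16-fold) in WT and OE/OE mice, with 1 coloured line per littermate pair and 1 point per mouse. Bmpr1b lines run upward in 6 of 7 pairs, steepest in pairs 4, 6 and 8, whereas the lines of the other genes run in both directions.

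None of the other 9 members passed the test between genotypes. The test was limma with the littermate pair as a block and a threshold of 0.05 on the unadjusted p, which 3.81% of all 16124 genes passed (614 genes). The unadjusted p-values of the 9 genes lay between 0.199 and 0.889, and each adjusted p from limma was 1.00. With edgeR and with DESeq2 on the recovered fragments the number of these genes past the threshold was also 0. The median of their log2 differences was 0.06, with 5 of 9 above 0, against a median of -0.0015 over all genes.

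Of the receptors other than Bmpr1b, Bmpr1a encodes a second type I receptor. Its level was 4540 to 6930 normalized counts in WT (median 5381) and 4043 to 7801 in OE/OE mice (median 5846). The ranges overlapped, with 3 OE/OE mice above the highest and 1 below the lowest WT mouse, and its log2 difference was 0.06 ± 0.09 (SE), with a 95% interval from -0.14 to 0.26 (limma p = 0.528, exact sign-flip p = 0.641). Bmpr2, the type II receptor that prefers BMPs, had 4979 to 9681 counts in WT (median 7567) and 3617 to 12293 in OE/OE (median 7476). Its difference was -0.01 ± 0.10 (interval -0.23 to 0.20, limma p = 0.889, exact sign-flip p = 0.859), and the lowest value in each genotype came from pair 4. Its sign turned without that pair (0.06). Acvr1, also called ALK2, is a type I receptor for BMP7 among other ligands. It had 2208 to 3363 counts in WT (median 2885) and 2194 to 4126 in OE/OE (median 3038), higher in 5 of 7 pairs, with a difference of 0.11 ± 0.09 (interval -0.09 to 0.32, limma p = 0.252, exact sign-flip p = 0.297). Without pair 1 Acvr1 passed the unadjusted threshold of the test (0.19, limma adjusted p = 0.658). For these abundant receptors most of the sum of squares lay between pairs, 82.5% for Bmpr1a, 92.0% for Bmpr2 and 79.7% for Acvr1. These are raw shares too, and pairs are more numerous than genotypes.

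The ligands varied more from pair to pair than the abundant receptors did. Bmp4, a ligand made mainly by mesenchymal cells, had 293 to 495 counts in WT mice (median 366) and 101 to 614 in OE/OE mice (median 417). All WT values lay inside the OE/OE range, whose lowest value, in pair 4, was well under the others. Pair 1 had the highest log2 difference (1.07) and pair 4 the lowest (-2.29), while 5 pairs lay between -0.47 and 0.50. The fitted value of -0.14 ± 0.33 (SE, interval -0.88 to 0.60, limma p = 0.677, exact sign-flip p = 0.812) became 0.22 without pair 4. Bmp7, a ligand of epithelial tissues, had 383 to 857 counts in WT (median 712) and 319 to 1359 in OE/OE (median 666). Here pair 1 was lowest (-1.42) and pair 4 highest (1.56), the reverse of Bmp4. Its fitted difference was 0.11 ± 0.27 (interval -0.51 to 0.73, limma p = 0.700, exact sign-flip p = 0.594) and was -0.13 without pair 4. The intervals ran from 0.543-fold to 1.51-fold for Bmp4 and from 0.704-fold to 1.65-fold for Bmp7. Changes of a size within them are not excluded by these 7 pairs.

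The ID genes encode small helix-loop-helix proteins without a DNA-binding region. Id1 had 301 to 838 counts in WT (median 535) and 233 to 855 in OE/OE (median 443). As with Bmp4, the difference was highest in pair 1 (1.06) and lowest in pair 4 (-1.84). The fit gave -0.08 ± 0.28 (interval -0.70 to 0.54, limma p = 0.768, exact sign-flip p = 0.812), and 0.21 without pair 4. Id3, the most abundant of the 4, had 2715 to 6137 counts in WT (median 4138) and 2249 to 5234 in OE/OE (median 3369). Its pairs ran in the same way, from 0.43 in pair 1 to -1.45 in pair 4, with a fit of -0.16 ± 0.20 (interval -0.60 to 0.28, limma p = 0.434, exact sign-flip p = 0.672) that became 0.05 without pair 4. Neither gene separated the genotypes, and both had their highest WT and lowest OE/OE value in pair 4.

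Id2, which is needed for lobuloalveolar development in pregnancy, had 708 to 1188 counts in WT (median 862) and 559 to 1968 in OE/OE (median 958). It was higher in 3 of 7 pairs, and its largest differences were 0.73 in pair 3 and 0.60 in pair 6. Its fitted difference was 0.12 ± 0.14 (interval -0.18 to 0.43, limma p = 0.391, exact sign-flip p = 0.453). Id4, an ID gene of basal mammary cells, had 1095 to 1897 counts in WT (median 1273) and 1035 to 3069 in OE/OE (median 1407). It was higher in 5 of 7 pairs, lowest in pair 5 (-0.48) and highest in pair 3 (0.92), with a fit of 0.21 ± 0.15 (interval -0.13 to 0.56, limma p = 0.199, exact sign-flip p = 0.281). Without pair 5 Id4 passed the unadjusted threshold of the test (0.33, limma adjusted p = 1.00).

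**Figure D2:**
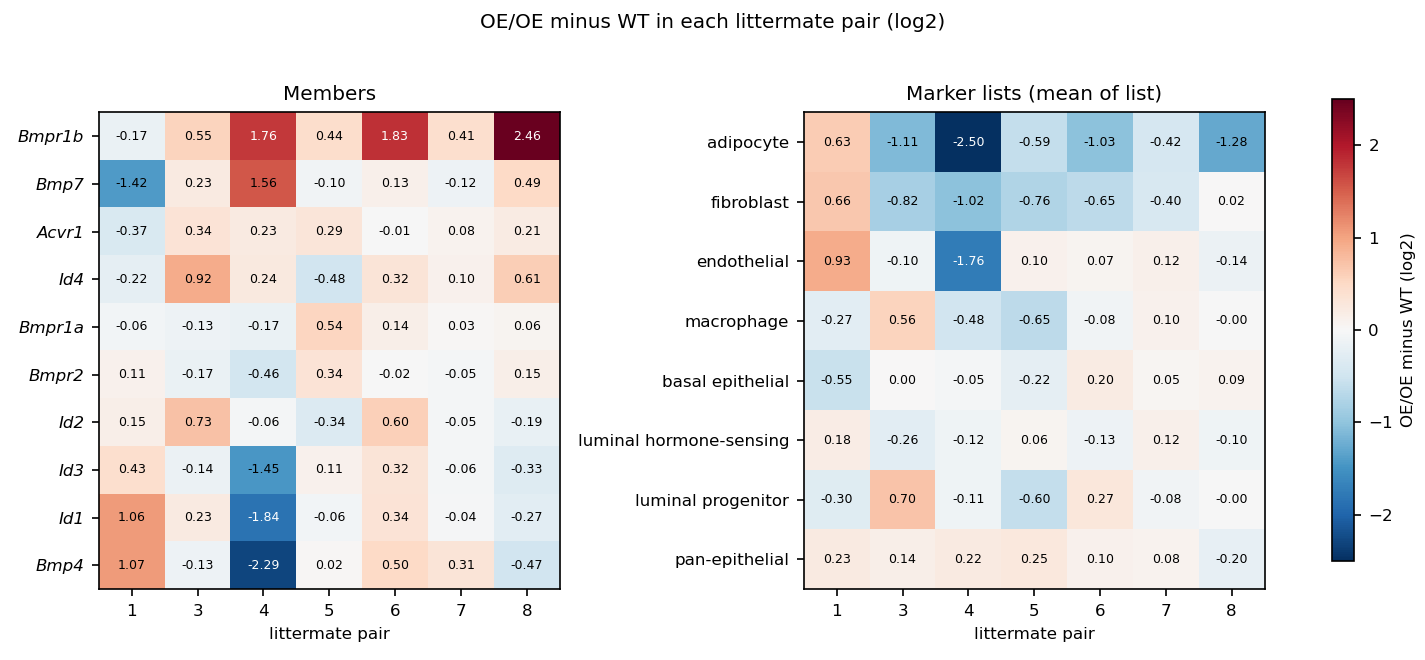
Log2 difference between the OE/OE and the WT mouse (colour and printed value) in each littermate pair, for the 10 members at left and for the mean of 8 marker lists at right. Pairs 1 and 4 are opposite in sign for Bmp4, Id1 and Id3 and for the adipocyte and endothelial lists, and Bmp7 has the reverse pattern.

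The differences of several members ran together over the pairs. Among 145 relations of members with each other and with marker lists over 7 pairs, 22 had an exact permutation p under 0.05 for Pearson's r. After Benjamini-Hochberg adjustment 0 did, while for Spearman's rho 2 did, both of Bmp7. These 2 were with the adipocyte and endothelial scores, which ranked the 7 pairs in the same order, so they are not separate results. Bmp4 went with Id3 (r = 0.982, exact permutation p = 0.00079, adjusted 0.058, and rho = 0.964, p = 0.0028, adjusted 0.134). Leaving out pairs 1 and 4, the farthest on the x axis, r was 0.859. Bmp4 also went with Id1 (r = 0.973, exact permutation p = 0.0026, adjusted 0.067, and rho = 0.893, p = 0.012, adjusted 0.223), with 0.664 without pairs 1 and 4. Id1 and Id3 had an r of 0.958 (exact permutation p = 0.0028, adjusted 0.067, rho = 0.857, p = 0.024, adjusted 0.288), which fell to 0.680. Bmp7 and Bmp4 ran opposite ways (r = -0.921, exact permutation p = 0.0077, adjusted 0.107, rho = -0.893, p = 0.012, adjusted 0.223), with -0.693 without pairs 1 and 4. The ligand Bmp4 and the target genes Id1 and Id3 thus had high and low differences in the same pairs, and part of each relation rested on the pairs at both ends.

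The same pairs differed in their content of stromal transcripts. Bulk RNA cannot tell fewer cells of a type from less RNA per cell. Adipocyte markers, 10 of 10 of which were detected with none at 0, scored 6.50 to 8.46 in WT (median 7.82) and 5.36 to 7.71 in OE/OE mice (median 6.97). Their mean pair difference was -0.90 ± 0.95 (SD, exact sign-flip p = 0.0625, adjusted over 10 lists 0.417), with a lower score for the OE/OE mouse in 6 of 7 pairs, and 6 of the 10 genes passed the limma threshold. For the fibroblast score it was -0.43 ± 0.59 (lower in 5 of 7, exact sign-flip p = 0.125, adjusted 0.417), and for the endothelial score -0.11 ± 0.81 (lower in 3 of 7, exact sign-flip p = 0.781, adjusted 0.955). In both lists 10 of 10 markers were detected and none was at 0. For Bmpr1b, the 3 pairs with the largest differences, 8, 6 and 4, were 3 of the 4 with the largest drop in adipocyte score (-1.28, -1.03 and -2.50), and pair 1, in which Bmpr1b was lower, was the only one in which that score was higher (0.63). Pair 3 had a drop of -1.11 with a Bmpr1b difference of 0.55. The part of adipocyte transcripts in the Bmpr1b difference was not tested.

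Within each genotype, Bmpr1b ran against the adipocyte score as well. Over the 7 WT mice r was -0.744 (exact permutation p = 0.067, adjusted over 145 relations 0.634, and rho = -0.714, p = 0.088, adjusted 0.798), and -0.885 without the mice of pairs 1 and 5. Over the 7 OE/OE mice r was -0.812 (exact permutation p = 0.020, adjusted 0.158, and rho = -0.750, p = 0.066, adjusted 0.353), and -0.602 without the mice of pairs 4 and 5. Neither passed after adjustment. Bmp4 went with the endothelial score in the OE/OE mice (r = 0.993, exact permutation p = 0.00020, the smallest possible, adjusted 0.029, and rho = 1.00, p = 0.00040, adjusted 0.058), with 0.943 without the mice of pairs 1 and 4. In the WT mice the same relation had an r of 0.634 (exact permutation p = 0.135, adjusted 0.757, and rho = 0.50, p = 0.267, adjusted 0.806), which was -0.388 without pairs 1 and 5. Id4 went with the basal epithelial score in the OE/OE mice (r = 0.919, exact permutation p = 0.00040, adjusted 0.029, and rho = 0.964, p = 0.0028, adjusted 0.101), with 0.917 without pairs 1 and 5, and in WT mice its r was 0.399 (exact permutation p = 0.365, adjusted 0.784, and rho = 0.536, p = 0.236, adjusted 0.806), which was -0.427 without pairs 6 and 7. Over the pair differences, Id4 and the basal score had an r of 0.623 (exact permutation p = 0.140, adjusted 0.443, and rho = 0.643, p = 0.139, adjusted 0.592), which was -0.112 without pairs 1 and 5. There Id4 went with the luminal progenitor score (r = 0.908, exact permutation p = 0.0056, adjusted 0.102, and rho = 0.929, p = 0.0067, adjusted 0.223), with 0.636 without pairs 3 and 5, and against the luminal hormone-sensing score (r = -0.833, exact permutation p = 0.022, adjusted 0.195, and rho = -0.786, p = 0.048, adjusted 0.410), with -0.937 without pairs 1 and 7. Whether these relations differ between the genotypes was not tested.

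Over the pair differences, Bmp7 was in exactly the reverse order of the adipocyte score. Its r was -0.991 (exact permutation p = 0.00060, adjusted 0.058) and its rho -1.0 (p = 0.00040, the smallest possible, adjusted 0.029), and r was -0.949 without pairs 1 and 4. The endothelial score ranked the pairs as the adipocyte score did, so its rho with Bmp7 is the same result and not a separate one. Against it Bmp7 had r = -0.951 (exact permutation p = 0.0062, adjusted 0.102, and rho = -1.0, p = 0.00040, adjusted 0.029), with an r of -0.923 without pairs 1 and 4. Bmp4 followed the endothelial score (r = 0.977, exact permutation p = 0.0014, adjusted 0.067, and rho = 0.893, p = 0.012, adjusted 0.223), with 0.821 without them. Id3 also followed it (r = 0.957, exact permutation p = 0.0024, adjusted 0.067, and rho = 0.857, p = 0.024, adjusted 0.288), with 0.731 without them. For Id1 the relation (r = 0.973, exact permutation p = 0.0081, adjusted 0.107, and rho = 0.714, p = 0.088, adjusted 0.491) rested on pairs 1 and 4, since r was 0.215 without them.

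**Figure D3:**
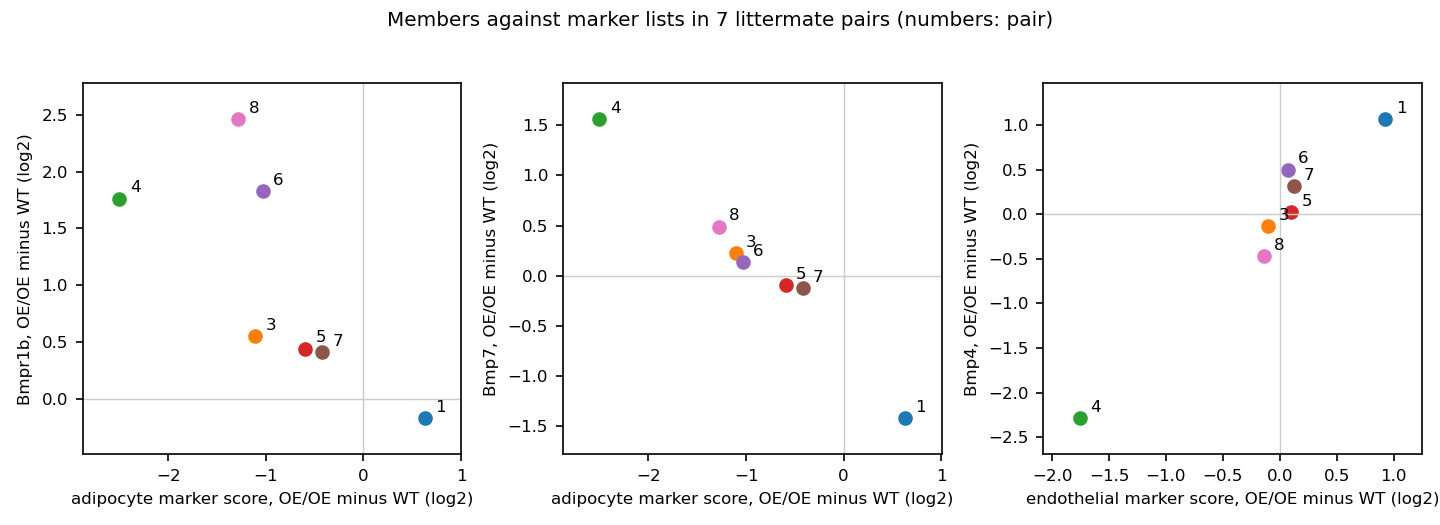
Log2 difference of Bmpr1b and Bmp7 against that of the adipocyte marker score, and of Bmp4 against that of the endothelial score, 1 numbered point per littermate pair. Bmp7 is lower wherever the adipocyte score is higher, in unbroken order over the 7 pairs, Bmp4 lies along a rising line with pairs 4 and 1 at its ends, and Bmpr1b is more scattered.

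The genotype difference was then fitted with a marker score as a covariate beside the pair. Of the 5 scores tried, the adipocyte score changed the calls of the members. At an equal adipocyte score the difference of Bmpr1b was 0.37, against 1.04 without it. Bmp4 became higher in OE/OE mice (0.78 ± 0.21, SE, limma adjusted p = 0.120), as did Id1 (0.67 ± 0.19, adjusted p = 0.133) and Id3 (0.35 ± 0.15, adjusted p = 0.270), and Bmp7 became lower (-0.72 ± 0.10, adjusted p = 0.112). Thus 4 of the 9 tested members passed the unadjusted threshold in this fit, 3 higher and 1 lower, which 17.9% of all genes passed, 10% higher and 7.86% lower, and none passed after adjustment. The difference of Acvr1 became -0.05 and that of Bmpr2 0.15. Only 1 of 7 pairs had a higher adipocyte score in the OE/OE mouse, so an equal score lies near the edge of these data. With the fibroblast score the difference of Bmpr1b was 0.85 and none of the 9 members passed (3.14% of all genes did), and with the endothelial score it was 0.97 and none passed (7.52% of all genes). Luminal hormone-sensing and proliferation scores, tried after the data were seen, left Bmpr1b at 0.92 and 1.04.

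**Figure D4:**
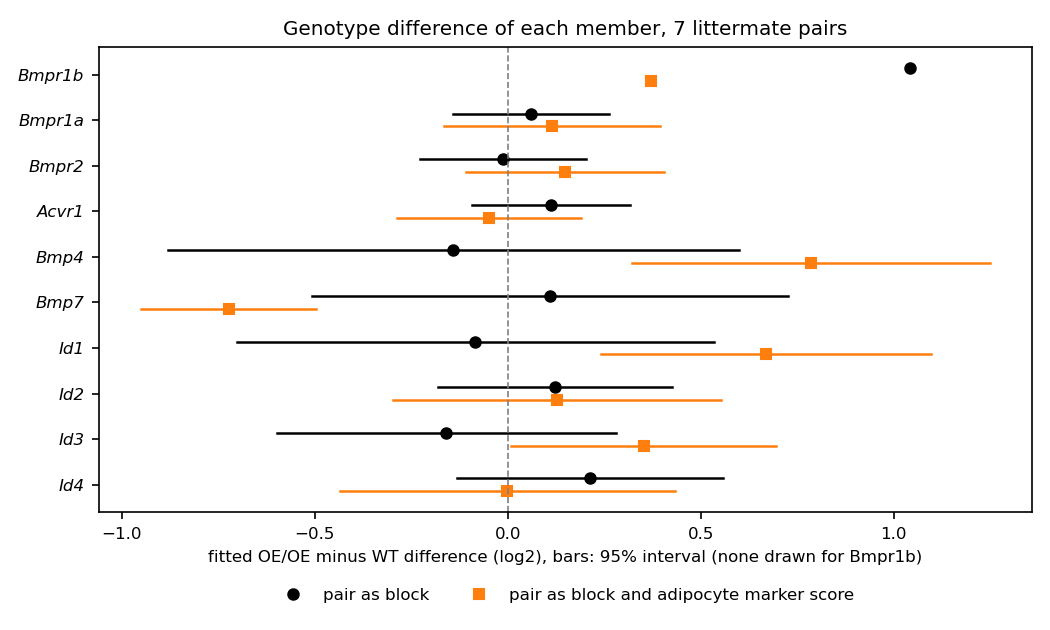
Fitted OE/OE minus WT difference (log2) of each member with the pair as a block (black circles) and with the adipocyte marker score added (orange squares). Bars are 95% intervals and are not drawn for Bmpr1b, which was not tested. The intervals of Bmp4, Bmp7, Id1 and Id3 include 0 without the score and exclude it with the score.

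The wider pathway was described with 59 other BMP pathway genes, 52 of them in the table. By the same limma test 1 was higher and 2 were lower in OE/OE mice, 5.77% of the list against 3.81% of all genes (1.95% higher and 1.85% lower), with adjusted p-values of 1.00 in limma. The median log2 difference of the 52 genes was 0.01. Both lower genes were among the 14 secreted modulators, of which 11 had a negative estimate. Bmper, a BMP-binding protein of endothelial cells, fell by 0.75 on the log2 scale (SE 0.25, limma p = 0.014, exact sign-flip p = 0.0625), from a median of 141 (64.7 to 338) to 73.1 (23.0 to 201), and was lower in 5 of 7 pairs. Fstl1, a follistatin-like protein of fibroblasts, fell by 0.28 (SE 0.10, limma p = 0.023, exact sign-flip p = 0.0625), from a median of 8384 (6570 to 9817) to 7532 (4274 to 8502), and was lower in 5 of 7 pairs. The ranges of both genes overlapped between the genotypes, and in pairs 1 and 8 both were higher in the OE/OE mouse. In these pairs the adipocyte score differed by 0.63 and -1.28, and the fibroblast score by 0.66 and 0.015. In the other 5 pairs the fibroblast score and both genes were lower in the OE/OE mouse.

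The estimates of Bmper and Fstl1 were closer to 0 with the adipocyte or fibroblast score in the fit. With the adipocyte score as a covariate Bmper and Fstl1 differed by -0.33 and -0.09, and with the fibroblast score by -0.25 and -0.08, and neither passed the threshold in these fits or without the pair as a block. With the endothelial score they differed by -0.68 and -0.25, and both passed the unadjusted threshold of limma. Fstl1 also did not pass when pair 3, 4, 5 or 6 was left out, with values from -0.22 to -0.27. The part of stromal transcripts in these differences was not tested.

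Of the 8 other receptors and co-receptors, Acvr2a was higher. It encodes a type II receptor shared by activins and BMPs, and it rose in all 7 pairs, by 0.07 to 0.46 (fit 0.19 ± 0.07, SE, limma p = 0.024, exact sign-flip p = 0.0156, the smallest 7 pairs allow). Of all genes 1.51% had the same direction in all 7 pairs. WT mice had 678 to 1030 counts (median 936) and OE/OE mice 760 to 1242 (median 1009), so the ranges overlapped although every littermate was higher. It did not pass in limma when pair 6 (0.15) or pair 8 (0.18) was left out, with the adipocyte score (0.16) or fibroblast score (0.18) in the fit, or without the block. Eng, an endothelial co-receptor with the highest mean count of this group, had a difference of -0.10 ± 0.21.

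In limma no gene passed among the 7 other ligands, the 4 SMAD transducers and the 8 intracellular inhibitors. The same held for the 8 other target genes and the 3 E protein partners of the ID proteins. By mean normalized count, not corrected for length, the highest of these 7 ligands was Bmp6 (577.5), nearly level with Bmp3 (577.4). The highest modulator was Twsg1. Bmp6 had a log2 difference of -0.09 ± 0.36 (SE), and Twsg1 had 0.01 ± 0.06. The SMAD transducers lay between 0.01 and 0.07, with Smad5 at 0.01 ± 0.08. Smad9, at a mean of only 18.5 normalized counts, was far less precise (0.01 ± 0.39). Of the inhibitors, 7 of 8 had an estimate above 0. Ski, a SMAD corepressor with the highest mean count of them, had 0.19 ± 0.09 (limma p = 0.055, exact sign-flip p = 0.0625). Ppm1a (0.06, limma p = 0.284, exact sign-flip p = 0.031) was higher in 6 of 7 pairs. Smurf1 (0.11, limma p = 0.096, exact sign-flip p = 0.047) was too. Both were named after their values were seen, and these sign-flip p-values were not adjusted. Hes1, better known as a Notch target, had 0.19 ± 0.14, and Tcf12, an E protein, 0.11 ± 0.08.

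**Figure D5:**
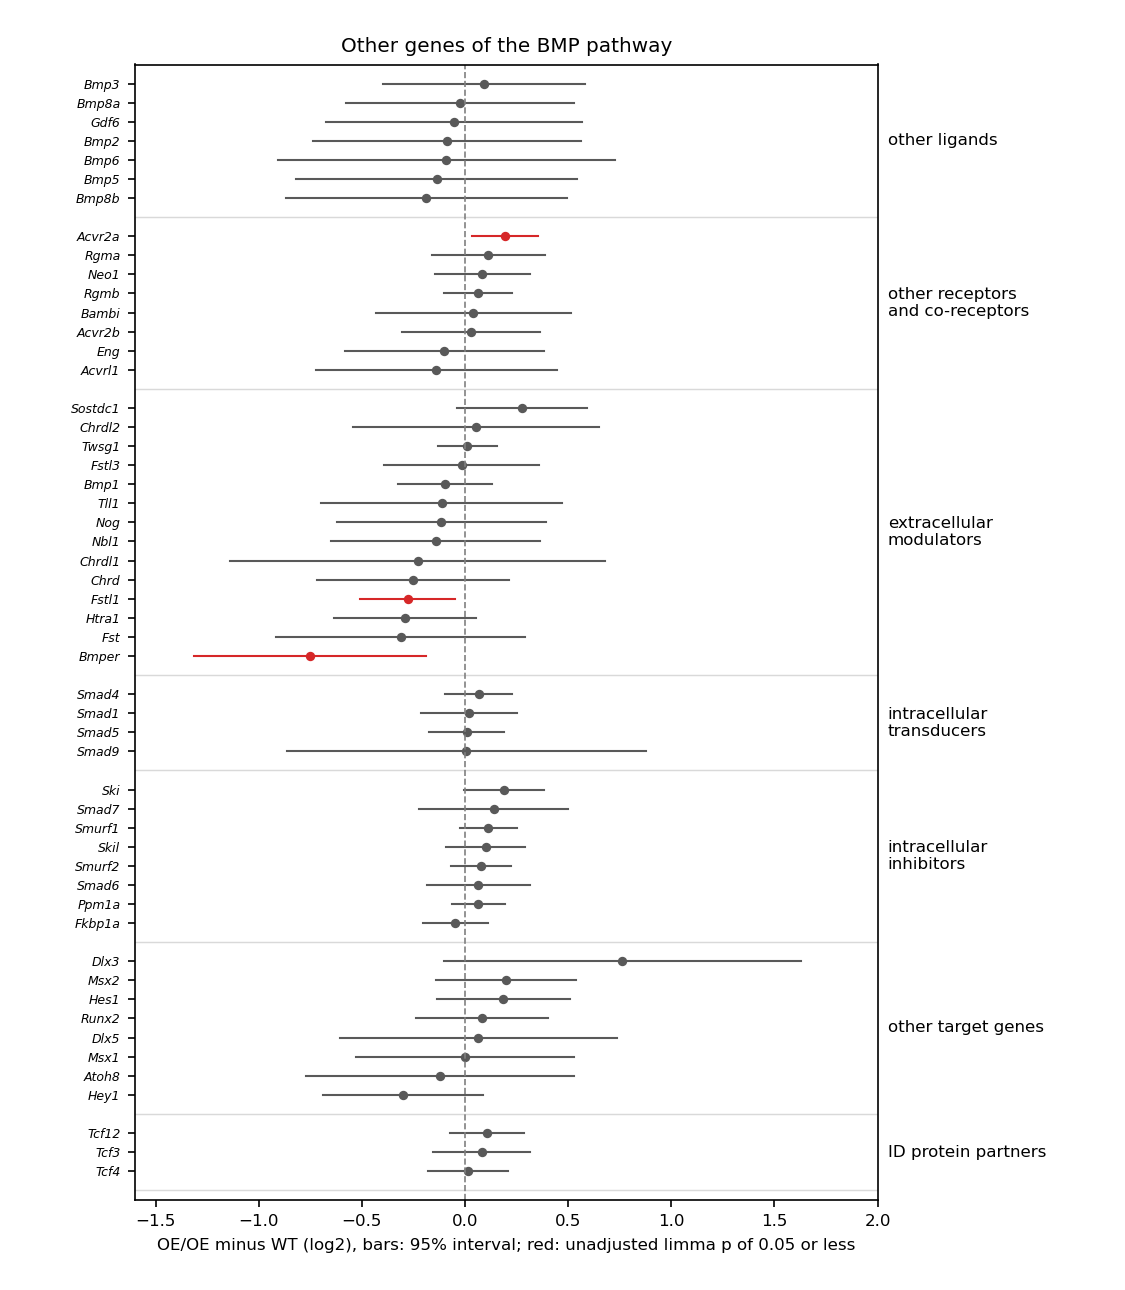
OE/OE minus WT difference (log2) of 52 other BMP pathway genes by role, with points for the limma estimate and bars for its 95% interval. The 3 genes with an unadjusted p of 0.05 or less are in red, Acvr2a among the receptors and Fstl1 and Bmper among the extracellular modulators.

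Bmpr1b was chosen by its difference, so smaller differences of the genes nearest to it on chromosome 3 do not test the region. The 6 genes of the table within 500 kb had log2 differences from -0.18 (Gbp2) to 0.16 (Pdlim5). None passed the limma threshold, which 3.81% of all genes passed, and Pdlim5 came closest to it. Unc5c, the neighbour on the plus strand that ends just past the 3′ end of Bmpr1b, had 0.08. Over the 14 libraries, the genes whose pattern was most like that of Bmpr1b were sought among 13229 genes with a mean of at least 50 normalized counts, by the root mean square difference of levels centred and scaled per gene. They were Gm29084 (0.493), Ptbp1 (0.530), Gm10434 (0.544), Igfals (0.557) and Fam83g (0.568), and none was another member.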

How the data were processed

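RNA was measured in mammary epithelial cells of 7 WT and 7 OE/OE littermates. The authors mapped read pairs to mm10 with TopHat 2.0.10 and counted fragments with HTSeq 0.6.0 (strand setting not given in the sources used here). They kept genes with 10 or more fragments in at least 7 samples and divided by DESeq 1.18.0 size factors, so the deposited values are a linear signal (normalized counts), 1 column per mouse. In every library 100% of values were whole multiples of 1 fragment (tolerance 0.01), from which depth and fragments were recovered.

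Differences were fitted over all 16124 genes with limma 3.58.1 (R 4.3.3, lmFit, eBayes with trend) on log2(normalized count + 1), which understates changes of low genes, with the littermate pair as a block. This replaced the per-gene paired test of the study, kept as an alternative beside edgeR 4.0.16 and DESeq2 1.42.0 on the recovered fragments. The pairing came from the labels. Across genes, deviations of littermates from their genotype mean had a median correlation of 0.522 (0.171 to 0.748). Over 42 other combinations it was -0.151 (-0.538 to 0.634), so the ranges overlapped. Centring on the genotype mean pushes these down when those of littermates are high, so part of the contrast is built in. P-values were adjusted by Benjamini-Hochberg over all genes. Exact sign flips (128 patterns) and exact permutations, all two-sided, were run in Python 3.11.15. Each mouse gave 1 library, so the spread is between mice.

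The members, the pathway and marker lists and the tests were chosen with earlier results of these data known. All members were named, and from the pathway list the genes with an unadjusted p of 0.05 or less and the gene of each role with the highest mean normalized count. Any other pathway gene was named after its values were seen. The result of 1 pathway gene is not reported here. Relations within a genotype and among members, and 2 of the covariates, were added once the data had been seen. The deposited counts do not separate Bmpr1a, Bmpr2, Acvr1, Bmp4 and Id4 from overlapping or antisense GENCODE genes, of which none is in the table.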

Additional observations from a re-analysis of the deposited data

Results flagged for a closer look

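Of 40 sets of 7 mice examined (10 members and 10 marker lists in each genotype), 3 held a mouse whose gap to the nearest other exceeded 0.568 of the range of its set, Dixon's 95% limit for 7 values. Chance alone gives about 2 in 40. In the OE/OE mice, Bmp4 was 6.67 on the log2(normalized count + 1) scale in pair 4, with the next value at 8.27. The endothelial marker score was 10.5 in the same mouse, with the next at 11.9. In the WT mice, the lymphocyte marker score was 7.25 in pair 1, with the next at 4.97.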

How the results depend on the processing

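Bmpr1b ranged from 0.37 (adipocyte score) to 1.24 (without pair 1) over 21 alternatives. It was chosen by its direction in these same libraries, so its constant sign is not a test. Id2 also stayed above 0 in all 21, although it was lower in the OE/OE mouse in 4 of 7 pairs (median log2 difference -0.05). With each pair left out, log2 differences ranged from 0.80 to 1.24 for Bmpr1b, -0.0205 (without pair 5) to 0.0967 for Bmpr1a, -0.0734 to 0.0609 for Bmpr2, 0.07 to 0.19 for Acvr1, -0.34 to 0.22 for Bmp4, -0.13 to 0.36 for Bmp7, -0.27 to 0.21 for Id1, 0.02 to 0.20 for Id2, -0.26 to 0.0550 for Id3 and 0.09 to 0.33 for Id4. The sign also turned with the adipocyte score for Bmpr2 (0.15), Acvr1 (-0.0479), Bmp4 (0.78), Bmp7 (-0.72), Id1 (0.67), Id3 (0.35) and Id4 (-0.0014), with the fibroblast score for Bmpr2 (0.0729), Acvr1 (-0.0299), Bmp4 (0.32), Bmp7 (-0.38), Id1 (0.33) and Id3 (0.0737), and with the endothelial score for Bmpr2 (0.0131), Bmp4 (0.0036), Bmp7 (-0.0084) and Id1 (0.0363). It turned with the luminal hormone-sensing score for Bmpr2 (0.0131) and Bmp7 (-0.0188), with the study's test for Bmpr2 (0.0397) and Bmp4 (0.0040), and with median centring for Bmpr2 (0.0054). The causes were not tested.

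The number of genes past the unadjusted threshold was 614, and 182 without the replicate block, 2885 with the adipocyte, 1213 with the endothelial and 1033 with the proliferation score, and 381 (without pair 6) to 1366 (without pair 4) with a pair left out, 1196 without pair 1. Of the 9 tested members 4 passed with the adipocyte score and 0 to 1 with a pair left out. Of the 52 other pathway genes 3 passed, and without the block 1 other gene, Dlx3 (0.76, named after its value was seen), while the calls of Acvr2a, Bmper and Fstl1 were lost. There were 13 with the adipocyte score, 1 with the fibroblast score (Fst, named likewise, none of the 3), 5 each with the endothelial, luminal hormone-sensing and proliferation scores, and 1 (without pair 6) to 5 (without pair 4) with a pair left out. No member gained a call without the pair block. Intervals reflect the spread between 7 pairs, and at 40 to 696 fragments per library Bmpr1b is the least precisely counted member.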
